A study of Mus musculus with 12 samples.

Results

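Mitochondrial ribosomal proteins build the ribosome that works inside mitochondria. The genes described here were taken by symbol, as every gene whose name starts with Mrpl or Mrps followed by a digit, and each was read from the brightest array probe set (transcript cluster) that was assigned to that gene alone. This gave 71 genes of the 22180 tested, 43 named for the large subunit (Mrpl) and 28 for the small subunit (Mrps). Signal entered the choice only in picking the brightest cluster of a gene. RefSeq lists 6 pseudogenes with such symbols, and since probe sequences were not used here, whether they add to a cluster's signal was not tested. Another 7 protein-coding genes with such names (Mrpl30, Mrpl33, Mrpl41, Mrpl43, Mrpl44, Mrpl53 and Mrps6) were seen only by clusters shared with a second gene and are not among the 71.

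Mitochondria keep a small genome of their own, and its messenger RNAs encode core subunits of the respiratory chain and the ATP synthase. These are translated inside the organelle by a dedicated ribosome whose RNA is encoded in mitochondrial DNA, whereas its proteins are encoded in the nucleus, made in the cytosol and imported. Part of these proteins descend from the bacterial ribosome and the rest were acquired in the mitochondrial lineage. In cold, subcutaneous white fat gains beige adipocytes, which are rich in mitochondria and burn fuel for heat through UCP1.

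Inguinal white adipose tissue (iWAT), fat from under the skin of the groin, was profiled on 12 mouse arrays that form 4 groups of 3. Adipocyte-specific knockout mice (AKO) carried floxed alleles of Baf60a, listed on the array as Smarcd1 and encoding a component of SWI/SNF complexes that remodel chromatin, together with Adiponectin-Cre. The controls (flox) were littermates with the floxed alleles and no Cre. Because this Cre is active in adipocytes, the other cells of the depot keep BAF60a. Mice of either genotype, 9 months old by the labels (for cold acclimation the methods give younger mice), were adapted gradually to 10 °C and kept there for 7 days (cold), or stayed at 22 °C (RT). Sex is not in the labels. Each array received the RNA of 1 mouse or an even mix from 2 mice, so the p-values measure the spread between 3 such RNAs a group. In such bulk tissue fewer cells of a type and less RNA per cell cannot be told apart.

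Signals are log2 values with array medians of 3.57 to 3.71, and arrays are named by group and number (AKO RT 2). Of the 71 genes, 70 had a mean signal above the overall median of 3.64, and only Mrpl27 (3.23) was below it. Smarcd1 itself gave 5.89, 6.26 and 6.30 in AKO RT and 6.27, 6.26 and 6.37 in AKO cold arrays, against 6.42, 6.43 and 6.91 in flox RT and 6.27, 6.51 and 6.89 in flox cold arrays. It was lower by 0.34 in AKO over both temperatures, which did not pass the test (limma adjusted p = 0.534). Whether its probes lie in the deleted part is not known, so this signal may not check the deletion. All 9 measured adipocyte markers were above the overall median in each group. Ucp1 was at 10.92, 10.41 and 10.59 in AKO cold arrays, against 4.94, 5.72 and 3.70 in flox cold arrays. Skeletal muscle transcripts differed widely, with the mean of 15 markers 2.65, 1.41 and 3.22 above its 12-array mean in AKO RT 2, AKO Cold 2 and AKO Cold 3. Interferon response genes were 0.95 and 1.28 above their mean in flox RT 1 and flox RT 2.

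The first question was what 7 days of cold did to these genes, taken as the mean of the cold minus RT differences of both genotypes. Of the 71 genes, 63 were higher in cold than at RT, and their median difference was 0.19 on the log2 scale. Over all 22180 genes, 49.2% were higher and the median difference was -0.00. With limma and Benjamini-Hochberg adjustment over all genes, 3 of the 71 rose (Mrpl12, Mrps31 and Mrpl16) and 0 fell, where 1.83% of all genes passed (1.38% rose and 0.455% fell). At an unadjusted limma p below 0.05, 30 of the 71 were higher and 0 were lower, against 6.97% and 6.21% of all genes. These shares include dim genes, whereas 70 of the 71 lay above the overall median signal. With dim genes left out, the median difference was -0.02 over the 12955 genes kept, against 0.19 over these 70. The unadjusted shares of the genes kept are not given here. The differences of the 71 genes were small. They ran between -0.16 and 0.45, and in 66 of the 71 genes the 95% confidence interval stayed within 1.5-fold in either direction. This comparison is the mean of the single-genotype comparisons given further below and shares their arrays.

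**Figure D1:**
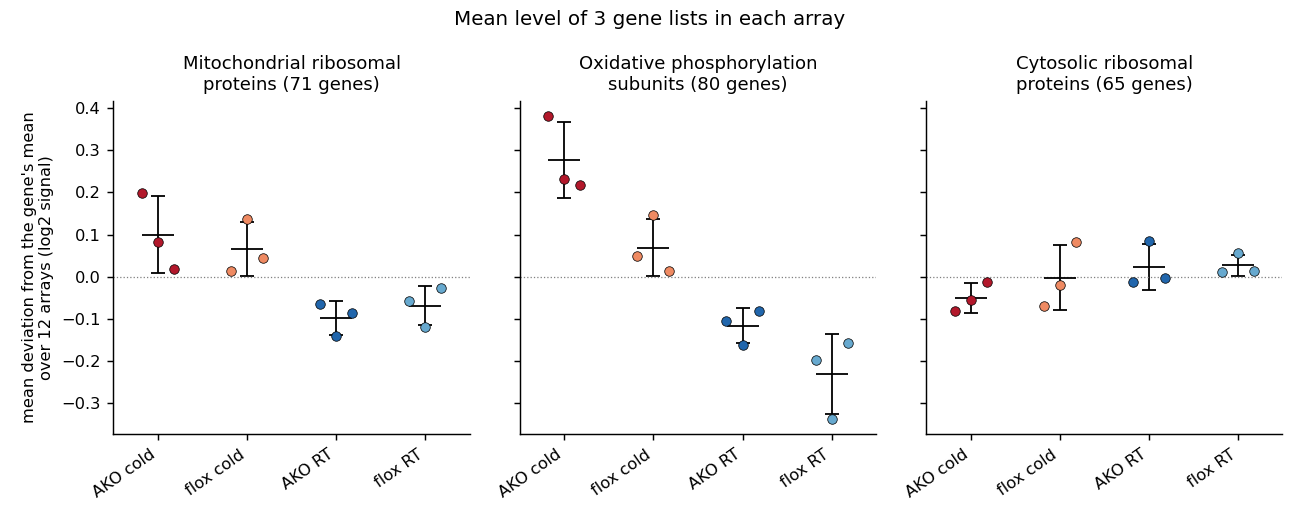
Mean deviation of 3 gene lists from each gene's own 12-array mean (log2 signal, y axis) in each array, by group (x axis), with points for arrays and bars for the mean and SD of 3 arrays. Every cold array of the mitochondrial ribosomal proteins lay above every RT array, the oxidative phosphorylation subunits were likewise separated, and the cytosolic ribosomal proteins overlapped.

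Averaged over the 71 genes, the deviation from each gene's 12-array mean was 0.20, 0.08 and 0.02 in AKO cold and 0.01, 0.14 and 0.04 in flox cold arrays, against -0.06, -0.14 and -0.09 in AKO RT and -0.06, -0.12 and -0.03 in flox RT arrays. All 6 cold arrays were thus above all 6 RT arrays, and the highest was AKO Cold 1, in which 64 of the 71 genes exceeded their own mean. The lowest was AKO RT 2, with 13 of 71.

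Mrpl12 had the smallest p of the 71 genes. It encodes the stalk protein of the large subunit, the counterpart of bacterial L7/L12, which recruits translation factors to the ribosome. It gave 6.61, 6.56 and 6.31 in AKO cold and 6.50, 6.45 and 6.59 in flox cold arrays, against 6.01, 5.93 and 5.77 in AKO RT and 5.99, 6.25 and 6.35 in flox RT arrays. AKO Cold 3 was the lowest cold array and lay just under the highest RT array, flox RT 3. The difference was 0.45 (1.37-fold, 95% confidence interval 0.26 to 0.65, limma adjusted p = 0.025). Averaged with its second, dim cluster it was 0.23 (limma adjusted p = 0.419).

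Mrps31 encodes a protein in the head of the small subunit with no bacterial counterpart. It was measured at 7.13, 7.07 and 7.00 in AKO cold and 7.21, 7.21 and 7.01 in flox cold arrays, against 6.88, 6.64 and 6.84 in AKO RT and 6.74, 6.76 and 6.75 in flox RT arrays. The 6 cold arrays did not overlap with the 6 RT arrays, and the difference of 0.34 (1.26-fold, 95% confidence interval 0.18 to 0.49) had a limma adjusted p of 0.038. Mrpl16, the counterpart of bacterial L16 near the catalytic centre of the large subunit, gave 6.84, 6.75 and 6.57 in AKO cold and 6.65, 6.81 and 6.64 in flox cold arrays, against 6.44, 6.03 and 6.38 in AKO RT and 6.13, 6.41 and 6.37 in flox RT arrays. Here too the temperatures did not overlap, although AKO RT 2 and flox RT 1 lay well under the other RT arrays. Mrpl16 was higher by 0.42 in cold (1.34-fold, 95% confidence interval 0.21 to 0.63, limma adjusted p = 0.0467). These 3 calls sat close to the threshold. Only Mrpl12 was called when AKO RT 1, flox RT 2 or flox RT 3 was left out, only Mrps31 when flox Cold 3 was, and Mrpl12, Mrpl42, Mrpl50 and Mrps34 when AKO Cold 3 was. Leaving out any 1 of the other 7 arrays gave 0 calls among the 71. The shares of all genes called in these fits are not given here. With dim genes left out, which kept 70 of the 71, 7 rose, where 3.18% of the 12955 genes kept did.

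**Figure D2:**
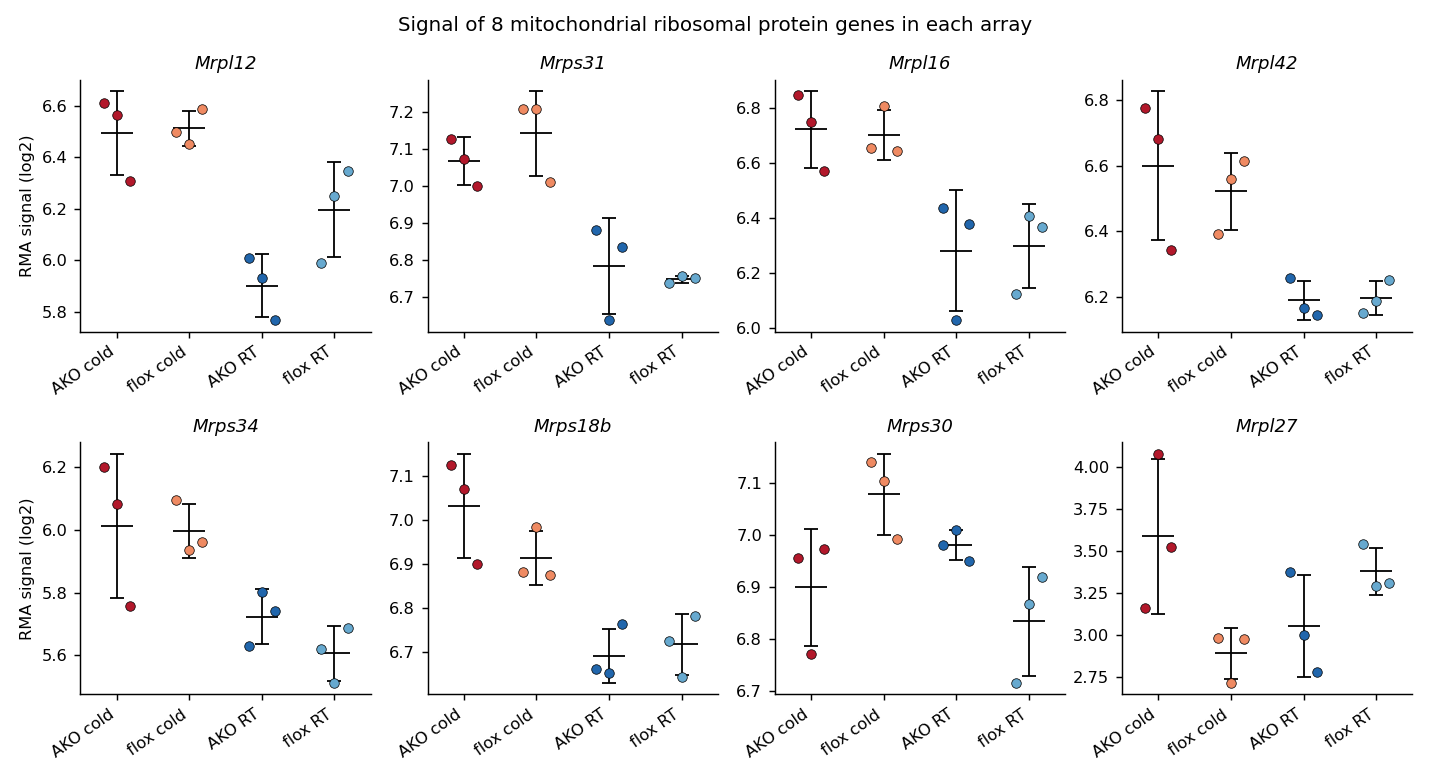
RMA signal (log2, y axis, a separate range in each panel) of 8 genes in each array, by group (x axis), with points for arrays and bars for the mean and SD of 3 arrays. Mrps31, Mrpl16, Mrpl42 and Mrps18b have every cold array above every RT array, whereas Mrps30 and Mrpl27 are arranged by genotype and temperature together.

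The next genes in order of p missed the threshold. Mrpl42, a large subunit protein specific to mitochondria, was at 6.78, 6.68 and 6.34 in AKO cold and 6.39, 6.56 and 6.61 in flox cold arrays, against 6.26, 6.16 and 6.15 in AKO RT and 6.15, 6.19 and 6.25 in flox RT arrays. No RT array reached a cold array, and the difference was 0.37 (limma adjusted p = 0.0538). Mrps34, a small subunit protein found only in mitochondria, gave 6.20, 6.08 and 5.76 in AKO cold and 6.10, 5.94 and 5.96 in flox cold arrays, against 5.63, 5.80 and 5.74 in AKO RT and 5.62, 5.51 and 5.69 in flox RT arrays, a difference of 0.34 (limma adjusted p = 0.0828). Here AKO Cold 3 fell within the RT range. Mrps18b, 1 of 3 paralogs related to bacterial S18, was at 7.13, 7.07 and 6.90 in AKO cold and 6.88, 6.98 and 6.88 in flox cold arrays, against 6.66, 6.65 and 6.76 in AKO RT and 6.73, 6.64 and 6.78 in flox RT arrays. The lowest cold arrays lay just above the highest RT array, with a difference of 0.27 (limma adjusted p = 0.0834). Mrps22 (0.43), Mrpl2 (0.23) and Mrpl50 (0.32) followed with limma adjusted p-values of 0.113, 0.113 and 0.119. Mrpl2 is the counterpart of bacterial L2, and the other two have no bacterial counterpart.

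In 6 of the 71 genes, all cold arrays lay above all RT arrays, and in 0 all lay below, where 1.46% and 0.6% of all genes did so. They were Mrps31, Mrpl16, Mrpl42, Mrps18b, Mrpl58 and Mrpl55. Mrpl58, a release-factor-like hydrolase of the large subunit that frees stalled ribosomes, had a narrow spread, with 7.56, 7.35 and 7.37 in AKO cold and 7.36, 7.42 and 7.41 in flox cold arrays, against 7.26, 7.18 and 7.28 in AKO RT and 7.15, 7.17 and 7.17 in flox RT arrays. Its difference was 0.21 (limma adjusted p = 0.154), and that of Mrpl55 was 0.25 (limma adjusted p = 0.161).

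**Figure D3:**
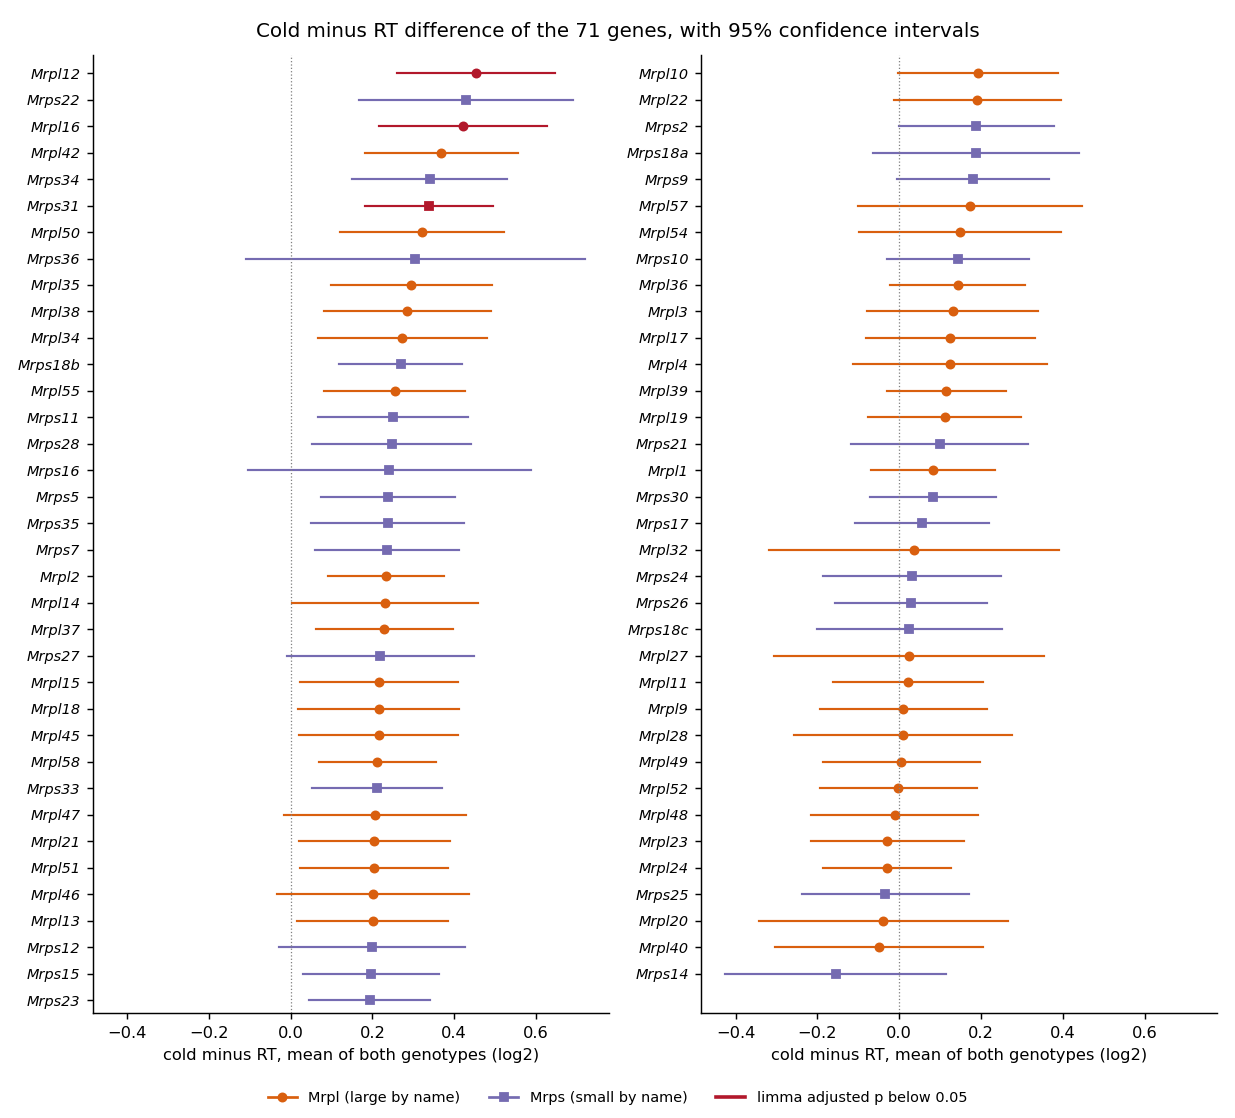
Cold minus RT difference averaged over both genotypes (log2, x axis) for each of the 71 genes (y axis, ordered by difference), with the 95% confidence interval, circles for Mrpl and squares for Mrps genes. The 3 called genes, Mrpl12, Mrpl16 and Mrps31, differ little from their neighbours, and 63 of the 71 points lie above 0.

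Only 8 of the 71 genes were lower in cold, and none of these differences passed the test. The largest was that of Mrps14, a small subunit protein with a bacterial counterpart, at -0.16 (95% confidence interval -0.43 to 0.11, limma adjusted p = 0.669). Its signal was 3.68, 3.70 and 3.94 in AKO cold and 3.11, 3.83 and 3.75 in flox cold arrays, against 3.74, 3.80 and 3.85 in AKO RT and 3.64, 4.01 and 3.90 in flox RT arrays, so that flox Cold 1 stood apart and the rest overlapped. Mrpl40, Mrpl20, Mrps25, Mrpl24, Mrpl23, Mrpl48 and Mrpl52 lay between -0.05 and -0.00. For Mrpl24 the 95% confidence interval was -0.19 to 0.13.

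Because 63 of 71 genes were higher in cold, the DNA at their starts was searched for the motifs of factors known to control nuclear genes for mitochondrial proteins. RefSeq promoter windows (GRCm38.p6) of 300 bases, with 250 bases before the annotated start and 50 after it, were at hand for 62 of the 71 genes. The promoters of the 3 called genes and of Mrpl42, the next by p, are printed here because their cold minus RT differences had the smallest p of the 71. Capitals mark a motif match, and all are written 5′ to 3′ in the direction of transcription.
Mrpl12, GRCm38.p6 chr11:120484387-120484686, plus strand: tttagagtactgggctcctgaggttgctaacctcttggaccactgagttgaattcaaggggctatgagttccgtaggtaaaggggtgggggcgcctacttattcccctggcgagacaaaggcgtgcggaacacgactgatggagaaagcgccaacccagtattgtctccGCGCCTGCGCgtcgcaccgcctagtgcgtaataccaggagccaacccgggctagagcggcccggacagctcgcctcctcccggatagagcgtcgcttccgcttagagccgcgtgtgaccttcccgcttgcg
Mrps31, GRCm38.p6 chr8:22411090-22411389, plus strand: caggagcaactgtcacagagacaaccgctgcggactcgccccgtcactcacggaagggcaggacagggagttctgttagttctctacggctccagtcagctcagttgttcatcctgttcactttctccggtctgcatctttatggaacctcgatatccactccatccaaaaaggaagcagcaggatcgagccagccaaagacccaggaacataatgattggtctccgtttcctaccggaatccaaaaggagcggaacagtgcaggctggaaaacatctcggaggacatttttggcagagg
Mrpl16, GRCm38.p6 chr19:11770165-11770464, plus strand: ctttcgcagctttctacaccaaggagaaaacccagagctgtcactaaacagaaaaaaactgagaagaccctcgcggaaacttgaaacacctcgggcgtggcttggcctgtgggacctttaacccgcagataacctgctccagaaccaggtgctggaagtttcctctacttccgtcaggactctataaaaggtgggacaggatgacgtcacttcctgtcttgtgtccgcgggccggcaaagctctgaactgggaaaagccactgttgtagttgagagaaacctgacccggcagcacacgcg
Mrpl42, GRCm38.p6 chr10:95501900-95502199, minus strand: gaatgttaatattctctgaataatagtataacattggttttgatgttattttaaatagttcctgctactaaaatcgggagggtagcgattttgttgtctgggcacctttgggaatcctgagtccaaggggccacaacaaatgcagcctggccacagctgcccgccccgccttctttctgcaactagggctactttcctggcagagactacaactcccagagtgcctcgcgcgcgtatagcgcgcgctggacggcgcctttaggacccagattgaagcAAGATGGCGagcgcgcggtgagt
In Mrpl12 the capitals are a match to the NRF1 motif on the other strand, which begins 81 bases before the start. In Mrpl42 they are a match to the YY1 motif that begins 27 bases after it. Mrps31 and Mrpl16 hold none of the 4 motifs searched in these windows, which says only that those letters are not there.

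On both strands, the NRF1 motif (GCGCA, any base, then GCGC) was found in the windows of 11 of the 62 genes (17.7%, against 5.19% of 27025 genes with a window). The ETS motif CCGGAAGT, bound by GABP, was found in 10 (16.1%, against 4.31%), and the YY1 motif AANATGGCG in 11 (17.7%, against 2.76%). The motif TCAAGGTCA of the estrogen-related receptors was found in 0 (against 0.466%). Any of the 4 was found in the windows of 29 of the 62 genes (46.8%, against 11.6%). The 27025 genes were not limited to genes on the array or by signal. Whether the higher shares are particular to these genes was not tested. The cold minus RT differences of genes with and without a motif had medians of 0.13 and 0.20 for NRF1, 0.08 and 0.19 for ETS, and 0.21 and 0.19 for YY1. Higher in cold were 11 of 11 genes with NRF1 and 43 of 51 without, 8 of 10 with ETS and 46 of 52 without, and 11 of 11 with YY1 and 43 of 51 without. A match is a run of letters and no evidence of binding.

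The genotypes were then taken one at a time. In AKO mice 60 of the 71 genes were higher in cold than at RT, with a median difference of 0.22, where 50.6% of all genes were higher. With limma 0 of the 71 passed the adjusted threshold, where 0.464% of all genes did, and at an unadjusted p below 0.05 there were 25 higher and 0 lower genes, against 5.43% and 4.43% of all genes. Every cold array was above every RT array in 27 of the 71 and below in 0, against 8.9% and 8.3% of all genes. In flox mice 60 of the 71 were also higher in cold, with a median of 0.15, where 48.3% of all genes were higher. None of the 71 passed the adjusted limma threshold, where 0.00902% of all genes did, and 13 were higher and 1 lower at an unadjusted p below 0.05, against 4.98% and 4.45%. The arrays were separated upward in 19 and downward in 1 of the 71, against 7.02% and 5.86% of all genes. The methods name an unpaired Student's t-test where figure legends state it, and no test for the arrays. With this methods' t-test before any adjustment, 18 of the 71 passed in AKO and 13 in flox, against 10% and 6.86% of all genes. In 53 of the 71 genes the cold group mean was above the RT mean in both genotypes, in 4 it was below in both, in 7 it was above in AKO alone and in 7 in flox alone.

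**Figure D4:**
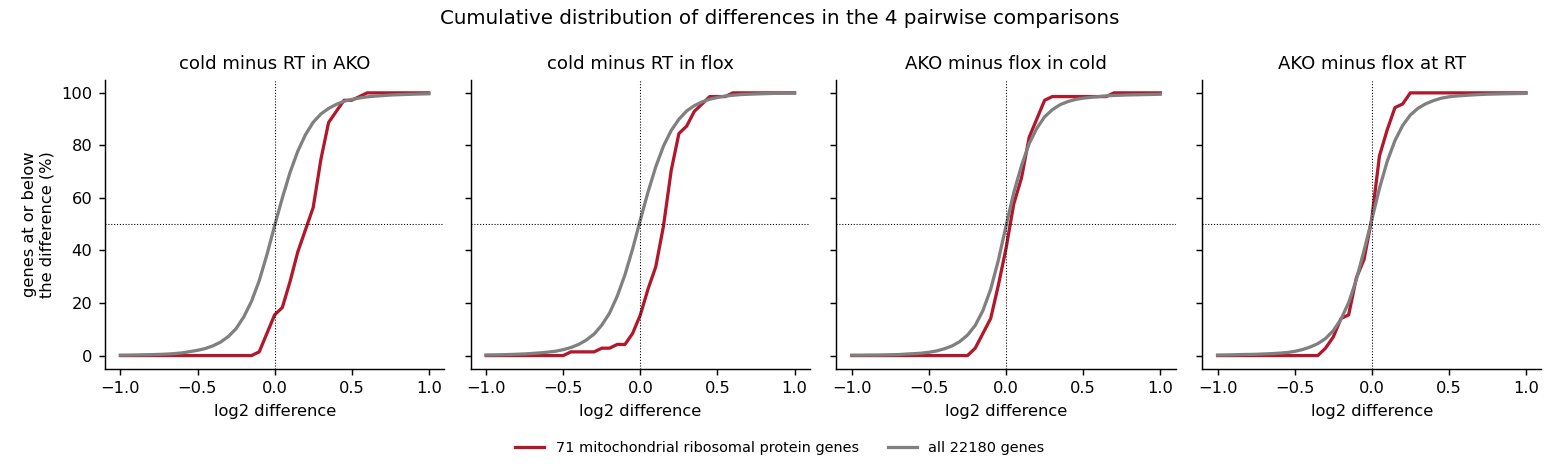
Share of genes (%, y axis) at or below each log2 difference (x axis) for the 71 mitochondrial ribosomal protein genes and for all genes, in the 4 pairwise comparisons. The curves of the 71 genes are shifted to the right of all genes in both cold comparisons, with medians of 0.22 and 0.15, and run close to them in both genotype comparisons.

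In AKO mice the gene with the smallest p was again Mrpl12, with a cold minus RT difference of 0.59 (1.51-fold, 95% confidence interval 0.32 to 0.86, limma adjusted p = 0.071), followed by Mrps18b (0.34), Mrpl42 (0.41), Mrpl2 (0.31) and Mrpl16 (0.44), with limma adjusted p-values of 0.194 to 0.234. In flox mice the order was led by Mrps31 (0.39, limma adjusted p = 0.244), Mrpl50 (0.43), Mrps22 (0.55) and Mrps34 (0.39). Mrps22 was spread widely, with 5.98, 6.54 and 6.30 in flox cold arrays against 5.46, 5.82 and 5.89 in flox RT arrays. The 1 gene lower in cold in flox mice at an unadjusted p below 0.05 was Mrpl27 (-0.49, limma adjusted p = 0.5).

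Whether cold acted differently in AKO and flox mice was asked by the interaction. With limma 0 of the 71 genes passed, where 0.018% of all genes did, and 1 was higher and 1 lower at an unadjusted p below 0.05, against 2.5% and 2.29% of all genes. The median interaction was 0.08, and it was above 0 in 48 of the 71, against 51.6% of all genes. Without AKO Cold 1 the median was 0.02 (37 of 71 above 0), and without AKO Cold 3 it was 0.12. The confidence interval stayed within 1.5-fold in 51 of the 71 and went beyond it in the rest. With 3 arrays a group and a median SE of 0.18, a modest difference between genotypes in single genes could be missed. The 2 genes at an unadjusted p below 0.05 were Mrpl27 (1.02, SE 0.302, limma adjusted p = 0.978) and Mrps30 (-0.33, SE 0.141, limma adjusted p = 0.978), followed by Mrpl46 of the central protuberance (0.46, SE 0.215, limma adjusted p = 0.978).

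Mrpl27, the counterpart of bacterial L27 close to the catalytic centre, gave 3.16, 4.08 and 3.53 in AKO cold and 2.98, 2.72 and 2.98 in flox cold arrays, against 3.38, 3.004 and 2.78 in AKO RT and 3.54, 3.29 and 3.31 in flox RT arrays. It was the dimmest of the 71, and AKO Cold 2 was its only value above 4. Without AKO Cold 2 its AKO minus flox difference in cold was 0.45 in place of 0.70. Mrps30, named for the small subunit although its protein lies in the large one, gave 6.95, 6.77 and 6.97 in AKO cold and 7.14, 7.10 and 6.99 in flox cold arrays, and 6.98, 7.01 and 6.95 in AKO RT against 6.72, 6.87 and 6.92 in flox RT arrays. The AKO arrays were all below the flox arrays in cold and all above them at RT.

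The last question was whether deletion of Baf60a altered these genes. At RT, 34 of the 71 were higher in AKO than in flox, with a median difference of -0.00, where 48.3% of all genes were higher. None passed with limma, where 0.144% of all genes did, and 0 were higher and 2 lower at an unadjusted p below 0.05, against 3.06% and 3.09%. Mrps2, a small subunit protein with a bacterial counterpart, gave 5.41, 5.66 and 5.73 in AKO RT against 5.89, 5.92 and 5.88 in flox RT arrays (-0.30, limma adjusted p = 0.78). Mrpl12 gave 6.01, 5.93 and 5.77 in AKO RT against 5.99, 6.25 and 6.35 in flox RT arrays (-0.29, limma adjusted p = 0.79). The methods' t-test before any adjustment passed 1 of the 71 at RT and 1 in cold, against 5.48% and 5.83% of all genes. Mrps10, of the small subunit head, was the next lower gene at RT (-0.22, limma adjusted p = 0.847). Mrps2 did not overlap and Mrpl12 did. The arrays were separated upward in 5 genes and downward in 1, against 5.61% and 5.73% of all genes.

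In cold, 42 of the 71 genes were higher in AKO than in flox, with a median of 0.03, where 50.6% of all genes were higher. Again 0 passed with limma, where 0.212% of all genes did, and 1 was higher and 0 lower at an unadjusted p below 0.05, against 3.23% and 3.05%. The 1 gene was the dim Mrpl27 (0.70, limma adjusted p = 0.453). Separated arrays were found upward in 5 (Mrpl27, Mrps7, Mrpl2, Mrpl51 and Mrpl14) and downward in 3 (Mrpl13, Mrps30 and Mrpl11), against 5.7% and 5.55% of all genes. Mrps7, a protein of the small subunit head, gave 7.39, 7.23 and 7.21 in AKO cold against 6.92, 7.20 and 7.05 in flox cold arrays (0.22, limma adjusted p = 0.832). Mrpl13, the counterpart of bacterial L13, gave 6.91, 6.72 and 6.85 in AKO cold against 6.92, 7.17 and 7.11 in flox cold arrays (-0.24, limma adjusted p = 0.829). In both genes the nearest AKO and flox arrays were almost level.

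Averaged over both temperatures, 39 of the 71 genes were higher in AKO than in flox, with a median of 0.01, where 48.6% of all genes were higher. With limma 0 passed, where 0.537% of all genes did, and 0 were higher and 2 lower (Mrps2 at -0.20 and Mrpl19 at -0.19) at an unadjusted p below 0.05, against 3.86% and 3.37% of all genes. For this average the confidence intervals were informative, since in all 71 genes they stayed within 1.5-fold in either direction. The averaged genotype difference was at most 0.22 in size (Mrpl28, -0.22). Both bounds hold only for the cluster used for each gene. The second cluster of Mrps18c, at a mean signal of 3.98, differed by -0.37, beside -0.10 in the cluster used. Its SE was 0.121, and it did not pass (limma adjusted p over all clusters = 0.605). Opposite differences at the 2 temperatures cancel in the average, as for Mrpl27, at -0.33 at RT and 0.70 in cold. It therefore does not limit the difference at a single temperature.

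Within the ribosome, the cold minus RT difference over both genotypes was spread over both subunits and over its parts. Of the 43 genes named for the large subunit 37 were higher in cold (median 0.19), and of the 28 named for the small subunit 26 were (median 0.20). The 28 include Mrps18a, Mrps30 and Mrps36, whose products are placed elsewhere. The 43 genes with a bacterial counterpart and the 28 without one had medians of 0.19 and 0.21, with 39 and 24 higher. In the stalk, where translation factors dock, 4 of 4 genes were higher but unevenly, with Mrpl12 at 0.45, Mrpl10 at 0.19, Mrpl54 at 0.15 and Mrpl11 at 0.02. In the central protuberance, which faces the small subunit, 6 of 8 were higher (median 0.21), led by Mrpl38 (0.29), Mrpl55 (0.25) and Mrpl18 (0.22). Around the exit of the nascent chain 5 of 7 were higher (median 0.13), Mrpl45, which anchors the ribosome to the inner membrane, at 0.22 and both Mrpl23 and Mrpl24 at -0.03. In the head of the small subunit 8 of 9 were higher (median 0.19), with Mrps31 at 0.34, Mrps35 at 0.24, Mrps7 at 0.24 and Mrps33 at 0.21, and Mrps14 alone below 0.

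The paralogs Mrps18a, Mrps18b and Mrps18c, which occupy different sites, differed by 0.19, 0.27 and 0.02 between cold and RT, with limma adjusted p-values of 0.548, 0.0834 and 0.956. The protein of Mrps18a lies in the large subunit. Mrps36, whose product is known as a part of the oxoglutarate dehydrogenase complex, had the widest confidence interval of the 71, with signals of 3.71, 3.48 and 4.38 in AKO cold and 3.95, 3.83 and 3.74 in flox cold arrays, against 3.62, 3.12 and 3.68 in AKO RT and 3.17, 3.52 and 4.16 in flox RT arrays (0.31, limma adjusted p = 0.559).

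Other genes of mitochondrial translation were read from the same arrays, as lists chosen by function. Of 3 further mitoribosome proteins Ptcd3 rose in cold over both genotypes (0.42, limma adjusted p = 0.0165), and Dap3 (0.06) and Gadd45gip1 (0.08) did not pass. Among 17 translation factors 12 were higher in cold (median 0.08) and 2 rose, Gfm1 (0.43), the elongation factor that moves the ribosome along the messenger, and Taco1 (0.37), an activator of translation of a cytochrome oxidase subunit, with limma adjusted p-values of 0.0169 and 0.0335. All 21 mitochondrial aminoacyl-tRNA synthetase genes were higher in cold (median 0.13), and 1 rose, Gars (0.36, limma adjusted p = 0.044), whose enzyme also serves the cytosol. Of 23 genes for ribosome assembly and ribosomal RNA modification 15 were higher (median 0.08) and 0 passed with limma, although 5 were higher and 1 lower at an unadjusted p below 0.05. Among 16 genes of mitochondrial transcription and its regulators 10 were higher (median 0.05) and 2 rose, Tfb2m (0.54), a mitochondrial transcription factor, and Ppargc1b (0.48), a coactivator of mitochondrial biogenesis, both with a limma adjusted p of 0.025. Its relative Ppargc1a was at 0.63 (limma adjusted p = 0.118).

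The products of this ribosome work beside nuclear-encoded partners, and the subunits of oxidative phosphorylation, 80 genes, were higher in cold in 72 (median 0.34), of which 34 rose and 0 fell with limma. In that list 74 of 80 were higher in AKO than in flox in cold (median 0.17) and 69 of 80 at RT (median 0.09), where 50.6% and 48.3% of all genes and 42 and 34 of the 71 mitochondrial ribosomal protein genes were. With limma 1 of the 80 passed in cold, Cox7a1 (2.97), a cytochrome oxidase subunit of heat-producing fat and muscle, and 0 passed at RT, where 6 were higher and 0 lower at an unadjusted p below 0.05. Whether the lists differed from each other was not tested. Of 65 genes for cytosolic ribosomal proteins 20 were higher in cold (median -0.05), 0 passed with limma, and 0 were higher and 3 lower at an unadjusted p below 0.05.

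**Figure D5:**
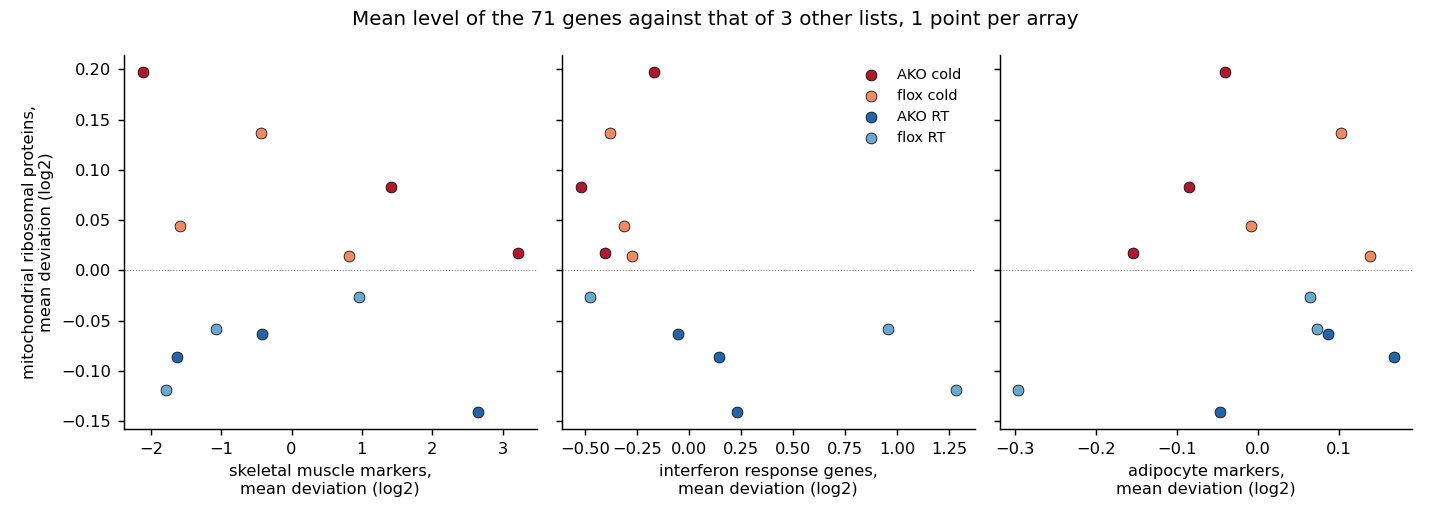
Mean deviation of the 71 mitochondrial ribosomal protein genes (log2, y axis) against that of the skeletal muscle markers, interferon response genes and adipocyte markers (log2, x axes), with 1 point per array coloured by group. Cold arrays lie above 0 at low and at high muscle signal, and they lie at low interferon signal together with flox RT 3, which is below 0. In AKO RT, AKO cold and flox cold the array highest in muscle signal is the lowest of its group, and in flox RT it is the highest. No relation was tested.

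Some other transcripts moved with the groups and are set beside these results. The mean of the muscle markers was -2.12, 1.41 and 3.22 in AKO cold and 0.82, -0.44 and -1.58 in flox cold arrays, against -0.42, 2.65 and -1.63 in AKO RT and -1.07, -1.79 and 0.95 in flox RT arrays. AKO Cold 1, poorest in muscle transcripts, was the array highest in mitochondrial ribosomal protein genes, and AKO Cold 3, richest in muscle transcripts, was among the lower cold arrays. AKO RT 2, richest in muscle transcripts among the AKO RT arrays, averaged -0.14 in the 71 genes, the lowest of all arrays. Flox Cold 1, richest among the flox cold arrays, averaged 0.01, the lowest of its group. Not all arrays followed this order. Flox RT 2, poor in muscle transcripts like AKO Cold 1, averaged -0.12 in the 71 genes. Flox RT 3, with more muscle transcripts, averaged -0.03, the highest of the RT arrays. The relation was not tested. Without AKO RT 2, AKO Cold 2 and AKO Cold 3 the median cold minus RT difference was 0.22 over both genotypes (65 of 71 higher) and 0.29 in AKO (66 of 71), and AKO minus flox in cold had a median of 0.14 (57 of 71). The AKO cold group then held AKO Cold 1 alone, the array highest in these genes, so these medians lean on that array. The muscle markers as a covariate left 63 of 71 higher in cold and 4 called. The share of all genes called in that fit is not given here, so the 4 calls are no result about these genes.

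The interferon response genes were lower in cold in all 11 measured genes (median -0.78), with 0 past the adjusted limma threshold and 9 lower at an unadjusted p below 0.05. Per array they averaged -0.17, -0.52 and -0.41 in AKO cold, with -0.28, -0.38 and -0.32 in flox cold arrays, against -0.06, 0.23 and 0.14 in AKO RT and 0.95, 1.28 and -0.48 in flox RT arrays. In a fit without flox RT 1 and flox RT 2, 59 of 71 genes were higher in cold (median 0.16). This fit was chosen after the data were seen. In flox mice alone 51 of 71 were higher (median 0.10), against the single remaining RT array, which is assumed to vary like the others. Macrophage markers were lower in cold in 10 of 10, with 0 past the adjusted limma threshold and 6 at an unadjusted p below 0.05. They averaged -0.12 in AKO cold and -0.19 in flox cold arrays, against 0.16 in AKO RT and 0.14 in flox RT arrays, and their part in the results was not tested. Adipocyte markers averaged -0.09 in AKO cold and 0.08 in flox cold arrays, against 0.07 in AKO RT and -0.05 in flox RT arrays.

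A second cluster existed for 9 of the 71 genes (Mrpl10, Mrpl12, Mrpl36, Mrpl47, Mrps5, Mrps16, Mrps17, Mrps18b and Mrps18c) and was dimmer in each. Of these 9, 5 were higher in cold, and none was called in any comparison. That of Mrps18b, at a mean signal of 6.52, was higher in cold by 0.39 (limma adjusted p over all clusters = 0.142), beside 0.27 in the cluster used. That of Mrpl12, at a mean of only 2.81, differed by 0.00 where the cluster used gave 0.45, and that of Mrps16, at 5.58, by -0.05 beside 0.24. Those of Mrps5 (-0.09 beside 0.24), Mrpl36 (-0.01 beside 0.14) and Mrps18c (-0.28 beside 0.02) were also lower in cold. That of Mrps17, at 3.58, was higher in cold by 0.66 in flox and lower by 0.22 in AKO, neither of which passed with limma (adjusted p = 0.413 and 0.819), beside 0.03 and 0.09 in the cluster used. The AKO minus flox difference of the second Mrps17 cluster was 0.61 at RT and -0.27 in cold, beside -0.14 and -0.08 in the cluster used. Neither passed with limma (adjusted p over all clusters = 0.657 and 0.942). Clusters shared with a second gene numbered 13, and 8 were higher in cold. Of the 9 that hold the 7 further genes, 7 were higher, among them the brighter Mrpl53 cluster by 0.26 (limma adjusted p = 0.253). The other 4 hold a gene of the 71, and 1 was higher, that of Mrpl47 and Actl6a (0.06). Those of Mrps27 (-0.27), Mrpl19 (-0.15) and Mrps34 (-0.09, shared with Nme3, beside 0.34 in its own cluster) were lower, and none passed with limma (adjusted p = 0.635, 0.745 and 0.813). A shared cluster cannot be assigned to either gene.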

How the data were processed

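The deposited values are log2 signals per transcript cluster, which the authors made with RMA in R 3.1.1 from single-colour Affymetrix arrays (WT Plus labelling). RMA corrects background, quantile-normalizes and summarises probes. Not given in the sources used here are the annotation package and whether the 12 arrays shared 1 normalization, and 0 columns of values were left out. Of 41345 clusters, 23521 carried 1 gene symbol, 1820 carried several and 16004 were not named. Each gene was read from its brightest 1-symbol cluster, which gave 22180 genes. All 71 genes matched RefSeq by Entrez identifier, and 0 symbols changed. No detection call exists, and no dim genes were left out of the test.

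Each comparison used limma 3.58.1 under R 4.3.3 (1 mean per group over 12 arrays, eBayes, two-sided), with Benjamini-Hochberg adjustment over all genes within each of 7 comparisons at 0.05. The scripts were tested on simulated data. The genes and lists were chosen with earlier results of these data known. Named genes are all those called, the Mrps18 paralogs, those with a second cluster, and up to 8 with the smallest p in either direction of a comparison, and in other lists genes among those called or the 4 with the smallest p (of the oxidative phosphorylation subunits called, Cox7a1 alone). The parts of the ribosome, and Mrpl18, Mrpl28, Mrpl45, Mrpl54, Mrps36 and the shared clusters, were picked after values were seen. Alternatives covered centring, quantile normalization, dim genes, clusters, variance model, replicate block, muscle transcripts, threshold, arrays in the fit, the methods' t-test and leaving out each array. A fit without 2 interferon-rich arrays was chosen after seeing the data. For gene starts, RefSeq promoter windows of GRCm38.p6 were searched. The number of arrays limits the precision.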

Additional observations from a re-analysis of the deposited data

Results flagged for a closer look

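Mrps30 was the gene in which AKO and flox arrays lay on opposite sides at the 2 temperatures, all AKO arrays below all flox arrays in cold and all above them at RT. AKO minus flox was -0.18 in cold and 0.15 at RT, and the interaction was -0.33 (SE 0.141, 95% confidence interval -0.63 to -0.02), which did not pass with limma (adjusted p = 0.978). Leaving out single arrays gave interactions of -0.37 to -0.26, with limma adjusted p-values of 0.753 to 1. Over all genes, AKO arrays were all below flox arrays in 5.55% in cold and all above them in 5.61% at RT. The share of all genes that showed both was not counted, so how unusual Mrps30 is was not tested.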

How the results depend on the processing

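The median cold minus RT difference over both genotypes stayed between 0.17 and 0.20 when single arrays were left out, with 58 to 66 of 71 genes higher in cold. The count called there was less stable. It was 3, and it became 5 with array medians subtracted, 7 with dim genes left out, 6 at an adjusted p below 0.1, and 0 with all clusters tested, without the 3 muscle-rich arrays or without the 2 interferon-rich arrays, and 0 to 4 with single arrays left out. With the mean of a gene's clusters it was 2, Mrps31 and Mrpl16, and Mrpl12 was no longer called (0.23, limma adjusted p = 0.419). With the replicate number as a block (replicate block) it was 0, with adjusted p-values of 0.0529 for Mrpl12, 0.0613 for Mrps31 and 0.0871 for Mrpl16. Same-numbered arrays correlated at -0.24 to 0.28 in their deviations, above 0.1 in 4 of 18 pairs. Differently numbered arrays correlated at -0.44 to 0.40, above 0.1 in 9 of 36 pairs. With 3 arrays a group these values do not settle whether the numbers pair arrays. In AKO mice 1 gene was called in cold with dim genes left out, with trend and robust settings, or at an adjusted p below 0.1. With dim genes left out, 3.18% of 12955 genes rose over both genotypes. Shares of all genes are not given for the other settings. These counts therefore describe how stable the calls were and are not results about the 71 genes. The methods' t-test before adjustment called 18 of the 71 for cold in AKO, 13 for cold in flox, 1 for AKO against flox in cold and 1 at RT (10%, 6.86%, 5.83% and 5.48% of all genes), and 0 after Benjamini-Hochberg. Without the 3 muscle-rich arrays the medians were 0.14 for AKO against flox in cold, 0.29 for cold in AKO and 0.17 for the interaction. AKO Cold 1 was then the only AKO cold array. Beyond fewer arrays or other sets of genes tested, the cause was not tested. No value changed its direction among those called. Subtracting array medians left the median of all genes between -0.03 and 0.05. The genotype medians lay on both sides of 0 with single arrays left out, at -0.04 to 0.07 in cold and -0.04 to 0.02 at RT.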
